A study of Homo sapiens with 9 samples.

Results

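The long noncoding RNAs (lncRNAs) described here are the named lncRNAs that Huh7 cells expressed at a moderate level or above. Members were chosen from the deposited table of expression (FPKM, a level scaled by the length of the transcript and by the library's fragment total). A member is listed as lncRNA, has a gene name that is not only an identifier, and has a mean of at least 5 FPKM over the 9 libraries. Hosts of small nucleolar RNAs were left out by name only (names starting with SNHG, and GAS5 and ZFAS1). Hosts under other names were not looked for and may be among the members. The rule found 45 genes among 27421 rows, of which 10442 are listed as lncRNA and 3529 of those carry a name. It left out 10 small nucleolar RNA hosts above the same limit, and 47 lncRNAs that are named only by an identifier lie above it too. The mean level chose the members, so the levels are a description. Just above the limit stood LINC00857 at 5.02 FPKM and ZDHHC12-DT at 5.03 FPKM, and just below it CROCCP2 at 4.995 FPKM and FAM86C2P at 4.97 FPKM.

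The study used Huh7, a human hepatocellular carcinoma cell line, and knocked down ZMAT2, a zinc-finger protein of the spliceosome, to ask about its part in liver cancer through mRNA splicing. All 9 libraries come from this line: 3 controls, whose vector the labels do not describe, 3 labelled shZMAT2-1 and 3 labelled shZMAT2-2, which are short hairpin RNA arms against ZMAT2. No clone, time after knockdown or culture is named, so a p-value measures the spread between these samples, which may be technical. RNA was selected by its poly(A) tail and the libraries were strand-specific, per the labels' protocols.

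LncRNAs are transcripts without a recognised protein product. Some build nuclear bodies, some bind proteins or microRNAs, and for others the act of transcription next to a coding gene is what has been studied. Their names carry part of this: -AS marks a gene antisense to the named coding gene, -DT a divergent transcript that starts beside the coding gene and runs the other way, LINC an intergenic RNA and HG a host of smaller RNAs. By these names and the deposited descriptions, the 45 members held 10 antisense genes, 6 divergent transcripts, 9 LINC genes and 1 microRNA host. A further 9 are described as pseudogenes and 10 have names of their own. A name need not give the position: FAM131B-AS2 lies on the same strand as FAM131B and does not overlap it.

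The sequences of 3 members show what such RNAs carry. NORAD, a cytoplasmic RNA of 5339 bases known for binding Pumilio proteins, is shown where its recognition sequence TGTANATA, in capitals, stands as an adjacent pair. The 3 stretches are at chr20:36049491-36049531, chr20:36048294-36048334 and chr20:36047658-36047698 on the minus strand (GRCh38, GENCODE release 29).
NORAD pair 1: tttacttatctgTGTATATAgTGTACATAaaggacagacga
NORAD pair 2: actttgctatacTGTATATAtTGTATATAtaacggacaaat
NORAD pair 3: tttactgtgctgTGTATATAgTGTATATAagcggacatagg
In each pair the matches start 9 bases apart. The transcript held 15 matches, searched on the transcribed strand only with overlapping matches allowed. Of the longest GENCODE transcripts of 36 members, 31 had no match, and the other 4 besides NORAD had at most 6. Among all 206694 GENCODE transcripts 10.1% had at least 1 match, and 6 of the 8098 transcripts as long as NORAD or longer had at least 15 (0.0741%). A match is a description of the letters and not a binding site.

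NEAT1, the architectural RNA of the nuclear bodies called paraspeckles, and MALAT1, an RNA of nuclear speckles, are shown at their 3′ ends because the protocol captured poly(A) tails. The long form of NEAT1 (chr11:65445481-65445540, plus strand, for the last 60 bases) and MALAT1 (chr11:65506057-65506116, plus strand) have a mature 3′ end that is made by RNase P and is a genome-encoded A-rich tract in place of a poly(A) tail. Its letters AAAGCAAAA are in capitals. The short form of NEAT1 ends at an ordinary polyadenylation signal, AATAAA, also in capitals.
NEAT1 long form: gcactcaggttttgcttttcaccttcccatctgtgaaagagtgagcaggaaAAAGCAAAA
NEAT1 short form: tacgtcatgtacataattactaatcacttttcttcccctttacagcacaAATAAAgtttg
MALAT1: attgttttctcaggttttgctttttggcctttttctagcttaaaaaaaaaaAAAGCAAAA
NEAT1 was the only member of the 36 with GENCODE transcripts whose longest one had AAAGCAAAA in its last 30 bases. MIR22HG is the host gene of miR-22, a microRNA abundant in liver, whose mature arms (RefSeq, GRCh38.p14, chr17:1713914-1713935 and chr17:1713952-1713973, minus strand) are shown with the seed, bases 2 to 8, in capitals.
hsa-miR-22-3p: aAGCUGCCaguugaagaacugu
hsa-miR-22-5p: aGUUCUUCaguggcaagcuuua
The arms have different seeds. The table measured the host transcript and not the microRNA.

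Start regions are shown for a divergent and an antisense member, with every CG pair in capitals, because the members' start regions spanned a wide range of CG content. Each runs from 250 bases before to 50 bases after the start (RefSeq, GRCh38.p14, chr4:52659156-52659455, plus strand, and chr2:54679996-54680295, minus strand), and both starts equal those in the deposited table.
USP46-DT start region: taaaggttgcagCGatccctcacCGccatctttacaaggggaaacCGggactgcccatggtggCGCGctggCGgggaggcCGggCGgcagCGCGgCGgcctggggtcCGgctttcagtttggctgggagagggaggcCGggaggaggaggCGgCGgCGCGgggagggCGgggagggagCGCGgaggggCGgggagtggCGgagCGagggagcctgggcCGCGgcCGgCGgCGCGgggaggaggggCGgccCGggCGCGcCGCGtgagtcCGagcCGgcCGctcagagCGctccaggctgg
SPTBN1-AS2 start region: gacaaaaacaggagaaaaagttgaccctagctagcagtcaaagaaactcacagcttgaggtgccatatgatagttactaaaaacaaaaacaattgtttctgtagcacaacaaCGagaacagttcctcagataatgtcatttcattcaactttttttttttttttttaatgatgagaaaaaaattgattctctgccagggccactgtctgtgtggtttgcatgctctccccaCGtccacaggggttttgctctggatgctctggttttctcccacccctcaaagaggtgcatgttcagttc
The USP46-DT region holds 39 CG pairs, a number that 8.71% of all start regions in the RefSeq table reach. It also contains the start of the coding gene USP46. The SPTBN1-AS2 region lies beyond the end of the coding gene SPTBN1, which the body of the antisense gene overlaps, and holds 2, a number that 18.2% of the table's regions do not exceed. Over the 24 members matched by name in that table the count ran from 2 to 56 CG pairs with a median of 23.5, beside 14 over the whole table.

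ZMAT2 itself was lower in every knockdown library. Its level was 37.5, 32.8 and 39.2 FPKM in the controls, 15.2, 12.8 and 13.2 FPKM in shZMAT2-1, and 22.1, 20.3 and 20.8 FPKM in shZMAT2-2. The 6 knockdown libraries did not overlap the 3 controls (exact permutation test, two-sided p = 0.0238, the smallest that this design can give by that test). The mean level was 36.5 ± 3.32 FPKM (SD, n = 3) in control, 13.7 ± 1.30 in shZMAT2-1 and 21.1 ± 0.92 in shZMAT2-2. Depth, recovered from single-exon genes, was 18430000 to 23740000 fragments per library. Mitochondrial genes, here and below the 13 that code for proteins, took 7.70% to 43.2% of fragments. The highest share within each group was in control replicate 2 (43.2%), shZMAT2-1 replicate 2 (16.4%) and shZMAT2-2 replicate 1 (27.0%). Nuclear genes, here and below all rows but these 13, had FPKM set against totals that include the mitochondrial fragments. Markers of hepatoma cells (ALB, AFP, APOA1 and 5 others) summed to 3384 to 6091 FPKM per library, against at most 4.18 FPKM for 6 fibroblast markers and 1.70 FPKM for 3 endothelial markers. The leukocyte markers found in the table summed to at most 136 FPKM, nearly all from LYZ. CD14 averaged 5.67 FPKM, while PTPRC and CD3E were each under 1 FPKM everywhere.

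The 6 most abundant members averaged 33.2 to 52.98 FPKM. LINC01419, an intergenic RNA of chromosome 8, averaged 52.98 FPKM over the 9 libraries. LINC00261, an endoderm RNA transcribed near FOXA2, averaged 40.5 FPKM. NORAD averaged 39.8 FPKM, the pseudogene SBDSP1 36.5 FPKM, UCA1, an RNA first described in urothelial carcinoma, 35.3 FPKM, and B4GAT1-DT 33.2 FPKM. The other 39 members lay below these, 13 members reached 10 FPKM and the median was 6.33 FPKM. LINC01419 varied little, from 42.8 to 61.8 FPKM, so its place at the top did not depend on a single library except control replicate 2, where UCA1, at 62.4 FPKM, was the highest of all members. The next 5 in this order overlapped each other across libraries: LINC00261 spanned 20.1 to 51.3 FPKM, NORAD 24.0 to 54.5 FPKM and UCA1 18.8 to 62.4 FPKM.

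**Figure D1:**
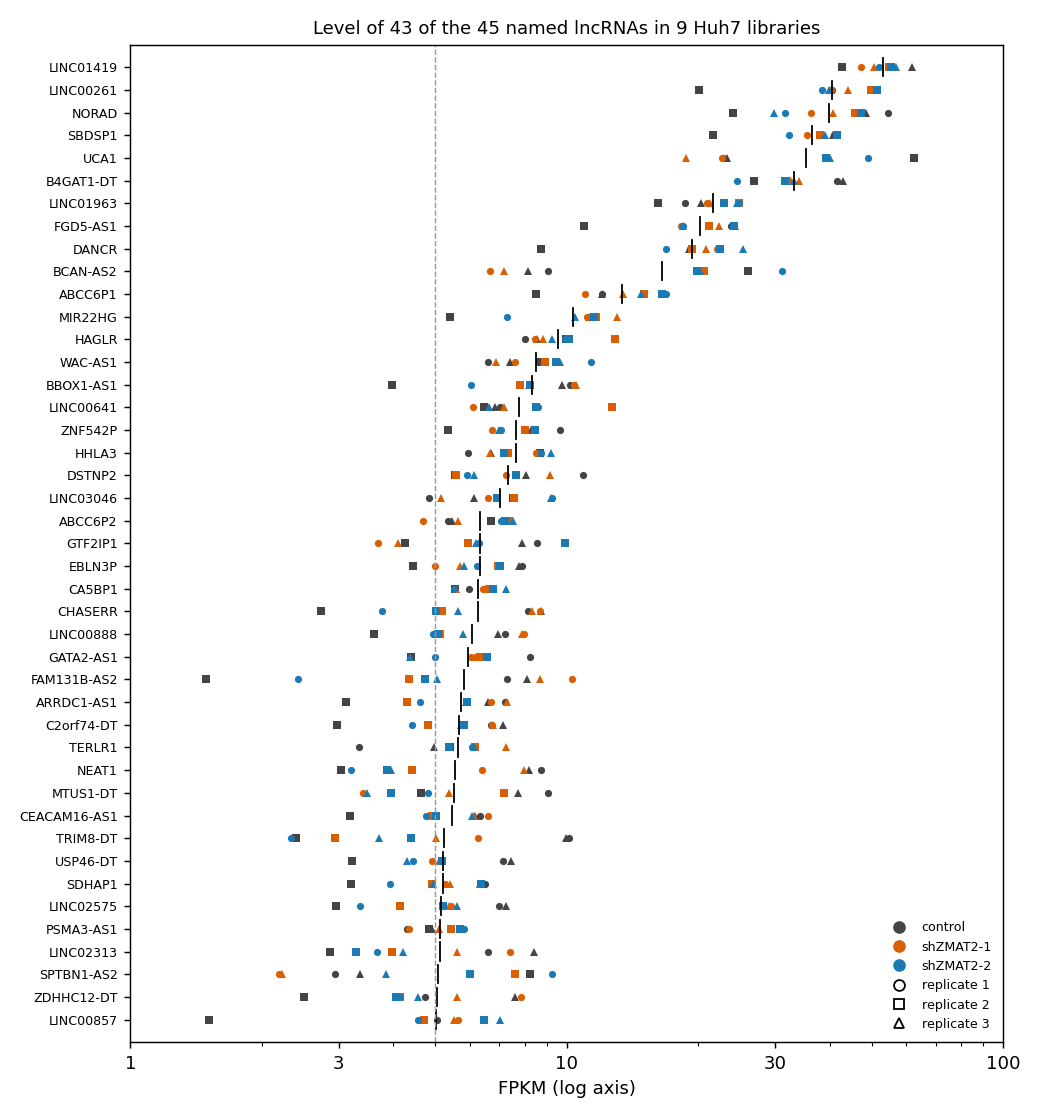
FPKM (log axis) of 43 of the 45 members in each of the 9 libraries, ordered by their mean, with colour for group, marker shape for replicate number, a black tick for the mean of 9 and a dashed line at the limit of 5 FPKM. Control replicate 2 (grey squares) is the lowest library for many members and the highest for UCA1, and most members lie between 5 and 10 FPKM.

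MALAT1, which marks most cell types, was not a member. It averaged 0.786 FPKM, with 0.544, 1.34 and 0.406 FPKM in the controls, 0.338, 1.17 and 0.255 FPKM in shZMAT2-1 and 1.19, 1.09 and 0.736 FPKM in shZMAT2-2. It reached 1 FPKM in 4 libraries. NEAT1 (chr11:65422774-65445540 in the deposited table, plus strand) passed the limit at a mean of 5.53 FPKM. The label of these genes as lncRNAs is the table's: TUG1, well known as a lncRNA, is typed there as protein-coding at a mean of 20.4 FPKM and so is no member, whereas the member HHLA3 is protein-coding in GENCODE release 29. Several lncRNAs that are studied in liver and in cancer were lower still, among them HULC at 0.498 FPKM, KCNQ1OT1 at 0.243 FPKM and H19 at 0.0117 FPKM. XIST, the RNA of X-chromosome silencing, is counted among the 45 members, and its levels are not given.

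No member was called between groups by the test applied to all genes. The test was limma with a trend on log2(FPKM + 1) over the 11245 genes that reached 1 FPKM in 3 or more libraries, and all 45 members were among them. Calls required a Benjamini-Hochberg adjusted p (two-sided, adjusted over all of these genes) under 0.05. In shZMAT2-1 against control 0 of 45 members were called, beside 0.0800% of all tested genes, and in shZMAT2-2 against control 0 of 45, beside 0.587%. In the mean of both arms against control 0 of 45 were called, beside 0.542%, and between the arms 0 of 45, beside 0%. At an unadjusted limma p under 0.05 the members gave 1, 2, 2 and 1 genes in these 4 comparisons, beside 5.76%, 7.00%, 6.93% and 4.14% of all tested genes. The lowest adjusted p of any member by limma was 0.52, for ABCC6P1 in shZMAT2-2. The first 3 comparisons share the same control libraries. By the same test ZMAT2 itself had a log2 fold change of -1.35 in shZMAT2-1 (limma adjusted p = 0.028). In shZMAT2-2 it was -0.76 (limma adjusted p = 0.11), and in the mean of both arms -1.06 (limma adjusted p = 0.014). The test thus did not call the targeted gene in shZMAT2-2, so a member without a call is not shown to be unchanged.

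The members' estimates lay on both sides of zero. Their median log2 fold change, here and below on the log2(FPKM + 1) scale, was 0.04 in shZMAT2-1 and 0.08 in shZMAT2-2, beside 0.16 and 0.05 over all tested genes. The mean of both arms gave 0.08 beside 0.10, and the difference of shZMAT2-2 from shZMAT2-1 gave -0.04 beside -0.09. In the mean of both arms 28 members had a higher and 17 a lower estimate than control, so that 62.2% were higher, beside 71.8% of all tested genes. By name class the median in the mean of both arms was -0.20 over the 6 divergent transcripts, 0.22 over the 9 LINC genes, 0.14 over the 10 antisense genes and 0.01 over the 9 pseudogenes, with no test of these differences.

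**Figure D2:**
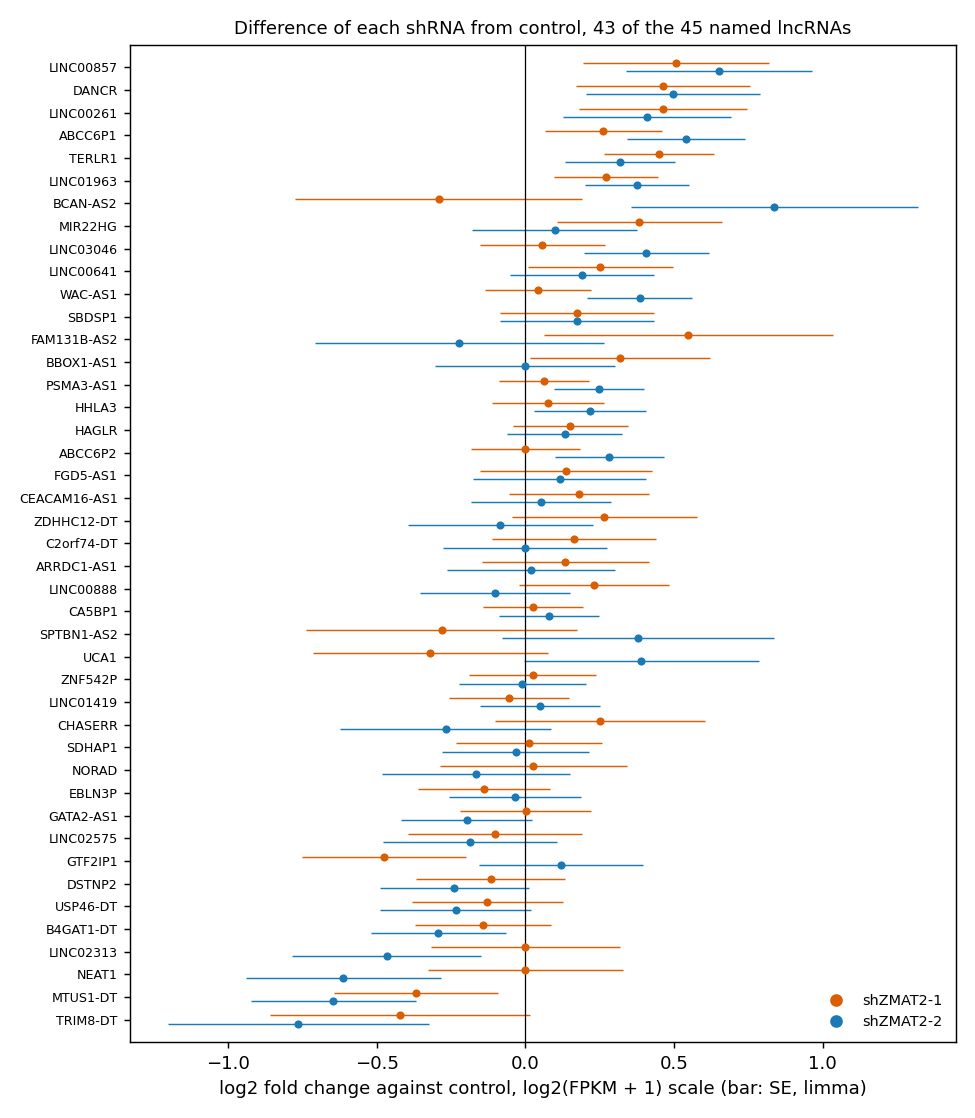
Log2 fold change of each hairpin arm against control on the log2(FPKM + 1) scale, with bars for the limma SE, for 43 of the 45 members ordered by the mean of both arms. TRIM8-DT, MTUS1-DT and NEAT1 stand at the lower end and LINC00857, DANCR and LINC00261 at the upper end, and most bars cross 0.

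The nuclear RNA NEAT1, which holds paraspeckles together, had its lowest group level in shZMAT2-2. Its level was 8.75, 3.03 and 8.18 FPKM in the controls, 6.39, 4.42 and 7.997 FPKM in shZMAT2-1, and 3.196, 3.87 and 3.95 FPKM in shZMAT2-2. Controls 1 and 3 lay above all 6 knockdown libraries and control replicate 2 lay below them, and all 3 libraries of shZMAT2-2 lay below all 3 of shZMAT2-1. The log2 fold change was -0.61 ± 0.33 (SE) in shZMAT2-2 against control (limma adjusted p = 0.86) and -0.61 ± 0.33 in shZMAT2-2 against shZMAT2-1 (limma adjusted p = 0.66). Without control replicate 2 the difference of shZMAT2-2 from control was -1.02 on the log2 scale with a limma adjusted p of 0.039. NEAT1 was also lower in the library of highest mitochondrial share within every group, and the part of that share in its difference between arms was not tested.

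Genes for proteins of paraspeckles and nuclear speckles, measured here as RNA only, were not called by the same test. Of 19 paraspeckle proteins 18 were tested and none was called in the mean of both arms, beside 0.542% of all tested genes. Of their estimates 13 were higher and 5 lower, with a median log2 fold change of 0.05. Over all tested genes 71.8% were higher, with a median of 0.10. The gene MATR3 fills 2 rows, each under 1 FPKM, and was not tested. TAF15, an RNA-binding protein of the FET family, had the smallest adjusted p of the list, with 13.3 ± 1.93 FPKM in control, 17.5 ± 0.86 in shZMAT2-1 and 14.2 ± 0.69 in shZMAT2-2 (SD, n = 3; mean log2 fold change 0.24, limma adjusted p = 0.98). DAZAP1, which binds RNA, was next at a mean log2 fold change of 0.27 (limma adjusted p = 0.9986). Most other genes of the list tied at that adjusted p, among them HNRNPH3, a splicing factor of the hnRNP family, with 39.2 ± 8.26, 36.4 ± 6.29 and 41.9 ± 5.14 FPKM in control, shZMAT2-1 and shZMAT2-2. Of 19 nuclear speckle proteins, all tested, none was called. Of their estimates 14 were higher and 5 lower, with a median of 0.13, beside the same 71.8% and 0.10 over all tested genes. THRAP3 had a mean log2 fold change of 0.33 (limma adjusted p = 0.94) and SRSF11, a serine/arginine-rich splicing factor, -0.28 (limma adjusted p = 0.98). The other genes tied at a limma adjusted p of 0.9986, among them U2AF2, which recognises the polypyrimidine tract before an exon, with 68.9 ± 21.4, 73.2 ± 9.40 and 62.7 ± 9.35 FPKM. At an unadjusted limma p under 0.05 both lists gave 0 genes in this comparison, beside 6.93% of all tested genes.

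In shZMAT2-2 and in the mean of both arms against control, the lowest estimates of all members belonged to the divergent transcripts TRIM8-DT and MTUS1-DT. TRIM8-DT (chr10:102642792-102644140, minus strand) starts 339 bases from TRIM8, a ubiquitin ligase gene, and is a single-exon gene whose whole fragments could be counted. The controls held 279, 74 and 258 of its fragments (10.1, 2.40 and 9.94 FPKM), shZMAT2-1 156, 91 and 138 (6.27, 2.95 and 5.01 FPKM) and shZMAT2-2 73, 141 and 110 (2.33, 4.40 and 3.71 FPKM). Controls 1 and 3 were above every knockdown library, and control replicate 2 was within the range of shZMAT2-2. Its log2 fold change was -0.42 ± 0.44 (SE) in shZMAT2-1 and -0.76 ± 0.44 in shZMAT2-2 (limma adjusted p = 0.81 and 0.91). TRIM8 itself was at 19.7 ± 3.56, 15.7 ± 1.00 and 18.3 ± 1.66 FPKM (SD, n = 3) in control, shZMAT2-1 and shZMAT2-2.

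USP46-DT, whose start region is printed above, was likewise highest in controls 1 and 3. It had 7.16, 3.21 and 7.44 FPKM in the controls, 4.92, 5.17 and 5.09 FPKM in shZMAT2-1, and 4.43, 5.18 and 4.29 FPKM in shZMAT2-2. All 6 knockdown libraries thus lay between control replicate 2 and the other controls, and the log2 fold change in shZMAT2-2 was -0.24 ± 0.25 (SE; limma adjusted p = 0.9995). USP46, a deubiquitinase gene that starts 105 bases away on the other strand, had 8.06 ± 3.71, 8.58 ± 0.86 and 6.86 ± 0.93 FPKM (SD, n = 3). MTUS1-DT starts 251 bases from MTUS1, a microtubule-associated tumour suppressor gene. It had 9.04, 4.63 and 7.75 FPKM in the controls, 3.40, 7.19 and 5.38 FPKM in shZMAT2-1, and 4.81, 3.96 and 3.48 FPKM in shZMAT2-2. Here the lowest control overlapped both arms, and the log2 fold change in shZMAT2-2 was -0.65 ± 0.28 (SE; limma adjusted p = 0.68). MTUS1 had 21.7 ± 1.17, 16.7 ± 4.91 and 16.6 ± 2.19 FPKM, with a log2 fold change of -0.38 in the mean of both arms (limma adjusted p = 0.81).

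Some of these genes were called when control replicate 2 was left out. Without it 3 of 45 members were called in shZMAT2-2 against control (6.67%), beside 2.40% of all tested genes, and all 3 were lower: NEAT1, TRIM8-DT (log2 fold change -1.33, limma adjusted p = 0.044) and USP46-DT (-0.56, limma adjusted p = 0.048). In the other 3 comparisons without that library 0 of 45 were called, beside 0.293% of all tested genes in shZMAT2-1, 1.33% in the mean of both arms and 0% between the arms. In shZMAT2-2 against control, leaving that library out moved the median log2 fold change of all tested genes from 0.05 to -0.15. The median of the members moved from 0.08 to -0.21. Control replicate 2 held the largest mitochondrial share of all, and the part of this share in its levels was not tested.

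B4GAT1-DT, the most abundant divergent transcript, starts 321 bases from B4GAT1, a glycosyltransferase gene. Its levels were 41.5, 26.8 and 43.0 FPKM in the controls, 32.4, 32.0 and 34.1 FPKM in shZMAT2-1, and 24.5, 31.6 and 33.1 FPKM in shZMAT2-2. B4GAT1 ranged far more widely in the same libraries, from 29.1 FPKM in control replicate 2 to 129 FPKM in control replicate 1. Of the members 17 start within 1000 bases of a coding gene's start on the opposite strand, and 18 overlap a coding gene on the opposite strand. Counting by strand is not stated in the sources used here, so fragments of such a member and its partner may not be separate. FGD5-AS1, which overlaps FGD5 and NR2C2, had 20.2 FPKM while FGD5 had 0.0038 FPKM, and BBOX1-AS1 had 8.33 FPKM while BBOX1 had 0.38 FPKM. A coding gene on the same strand overlaps 4 members. These are CHASERR with CHD2, DSTNP2 with LRRC23, CA5BP1 with CA5B and PSMA3-AS1 with ARMH4. Of these, DSTNP2, CA5BP1 and PSMA3-AS1 also overlap a coding gene on the opposite strand.

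**Figure D3:**
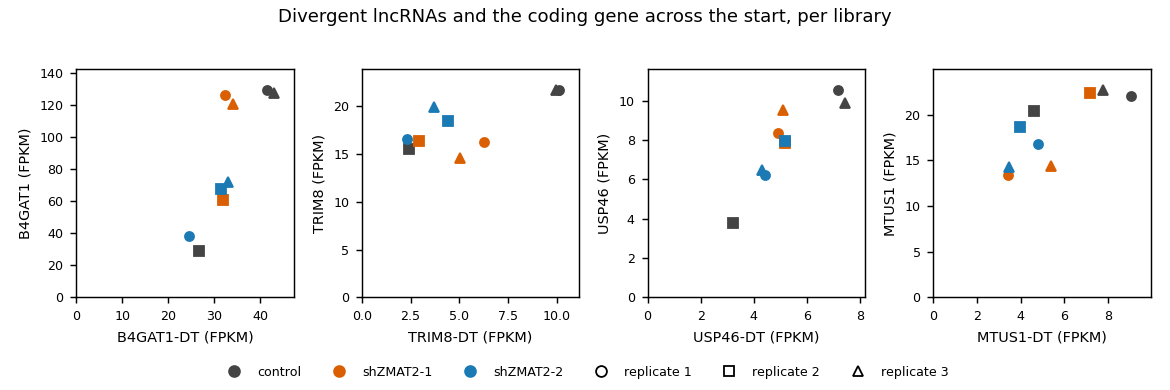
FPKM of 4 divergent lncRNAs (horizontal axis) against the coding gene that starts beside each (vertical axis), with a point for each of the 9 libraries, colour for group and marker shape for replicate. Controls 1 and 3 lie at the upper right in all 4 panels, and B4GAT1 spans 29.1 to 129 FPKM while B4GAT1-DT spans 24.5 to 43.0 FPKM.

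At the upper end, LINC01963 was the only member whose 6 knockdown libraries all lay above its 3 controls, 1 of 45 members (2.22%) beside 5.37% of all tested genes without overlap in either direction. LINC01963 is an intergenic RNA at chr2:216217045-216220192 (plus strand). It had 18.6, 16.2 and 20.3 FPKM in the controls, 20.9, 24.9 and 21.3 FPKM in shZMAT2-1, and 24.8, 22.9 and 24.6 FPKM in shZMAT2-2. The gap between the highest control and the lowest knockdown library was small, and the log2 fold changes were 0.27 ± 0.18 (SE) and 0.38 ± 0.18 (limma adjusted p = 0.81 and 0.75). On TPM, which rescales each library to 1 sum, no member was without overlap. After scaling on nuclear genes LINC01963 overlapped too, and 3 other members did not: DANCR and LINC00857 higher and B4GAT1-DT lower. The share of all tested genes without overlap was not computed on TPM or after scaling on nuclear genes. Without control replicate 2 there were 11 members without overlap (24.4%, beside 20.0% of all tested genes), 3 higher and 8 lower, NORAD among the lower ones.

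DANCR, an RNA studied for keeping progenitor cells undifferentiated, lies on chromosome 4 near USP46-DT (chr4:52712325-52723623, plus strand). It had 19.2, 8.71 and 19.04 FPKM in the controls, 22.1, 19.4 and 20.8 FPKM in shZMAT2-1, and 16.9, 22.4 and 25.3 FPKM in shZMAT2-2. The shZMAT2-1 libraries all lay above the controls, by little over controls 1 and 3. The log2 fold change was 0.46 ± 0.29 (SE) in shZMAT2-1 and 0.50 ± 0.29 in shZMAT2-2 (limma adjusted p = 0.81 and 0.92). LINC00857, a LINC gene on chromosome 10, had 5.04, 1.52 and 4.68 FPKM in the controls, 5.64, 4.70 and 5.52 FPKM in shZMAT2-1, and 4.56, 6.46 and 7.03 FPKM in shZMAT2-2. Its estimates were the highest of all members in the mean of both arms, 0.51 ± 0.31 and 0.65 ± 0.31 in the arms (limma adjusted p = 0.81 and 0.78). Without control replicate 2 they were 0.10 and 0.24, and those of DANCR 0.11 and 0.15. LINC00261 had 40.5, 20.1 and 40.3 FPKM in the controls, 40.3, 49.7 and 44.1 FPKM in shZMAT2-1, and 38.4, 51.3 and 39.9 FPKM in shZMAT2-2. Again control replicate 2 alone was low, with a log2 fold change of 0.46 ± 0.28 in shZMAT2-1 (limma adjusted p = 0.81). Its neighbour FOXA2, a transcription factor of endoderm and liver, had 41.8 ± 5.00, 44.4 ± 5.58 and 52.2 ± 1.27 FPKM.

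**Figure D4:**
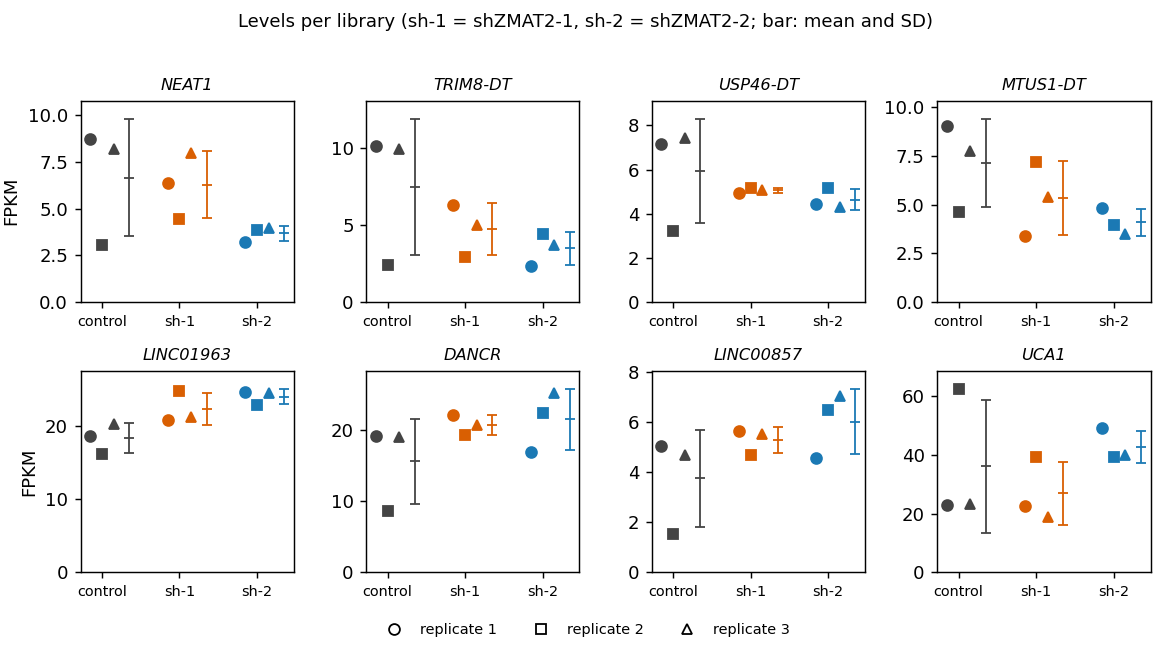
FPKM (from 0) of 8 members in the control, shZMAT2-1 (sh-1) and shZMAT2-2 (sh-2) libraries, with marker shape for replicate number and a bar for the mean and SD of 3. For 7 of the 8 the second control replicate (square) is the lowest control, while for UCA1 it is the highest of all 9 libraries at 62.4 FPKM.

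With a mitochondrial covariate, the log2 of the summed FPKM of 13 mitochondrial protein-coding genes per library, calls appeared at about the rate of all genes. In shZMAT2-2 against control 5 of 45 members were called (11.1%), beside 9.84% of all tested genes: DANCR, LINC00857 and ABCC6P1 were higher, NEAT1 and TRIM8-DT lower. In the mean of both arms 4 of 45 were called (8.89%), beside 9.75%, which were DANCR, LINC00857, NEAT1 and TRIM8-DT in the same directions. In shZMAT2-1 against control 1 of 45 was called (2.22%), beside 3.73%, and it was TRIM8-DT, lower. Between the arms 0 of 45 were called, beside 0%. Mitochondrial genes took 14.5% to 27.0% of fragments in the 3 libraries of shZMAT2-2 and 7.86% to 8.28% in controls 1 and 3. Control replicate 2, also in this fit, lay above all of these at 43.2%. Apart from that library, mitochondrial share and group are partly confounded.

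Pseudogenes that copy a coding parent carry sequence close to that of the parent, so that fragments may be split between both. SBDSP1 copies SBDS, a ribosome maturation factor gene. SBDSP1 had 40.9, 21.6 and 40.7 FPKM in the controls, 35.5, 38.1 and 38.7 FPKM in shZMAT2-1, and 32.2, 41.5 and 39.1 FPKM in shZMAT2-2, and the groups overlapped. SBDS had 34.7 ± 1.45, 45.5 ± 5.13 and 54.2 ± 1.08 FPKM (SD, n = 3), and its log2 fold change in shZMAT2-2 was 0.63 (limma adjusted p = 0.25). ABCC6P1 copies the transporter gene ABCC6. It had 12.03, 8.48 and 12.03 FPKM in the controls, 11, 15 and 13.5 FPKM in shZMAT2-1, and 16.9, 16.5 and 14.8 FPKM in shZMAT2-2. All libraries of shZMAT2-2 lay above all controls, with a log2 fold change of 0.54 ± 0.20 (SE; limma adjusted p = 0.52), while ABCC6 had 10.8 ± 5.33 FPKM in control and 9.94 ± 1.73 in shZMAT2-2. GTF2IP1, a copy of the transcription factor gene GTF2I, had 8.55, 4.27 and 7.88 FPKM in the controls, 3.69, 5.92 and 4.11 FPKM in shZMAT2-1, and 6.29, 9.92 and 6.20 FPKM in shZMAT2-2. Its shZMAT2-1 libraries lay below those of shZMAT2-2, and its log2 fold change in shZMAT2-1 was -0.48 ± 0.28 (limma adjusted p = 0.81). These parents were chosen after their values were seen.

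Without overlap between arm and control there were 3 of 45 members in shZMAT2-1 (6.67%, beside 10.9% of all tested genes) and 5 of 45 in shZMAT2-2 (11.1%, beside 13.4%), all higher. In shZMAT2-1 these were LINC01963, DANCR and TERLR1, and in shZMAT2-2 LINC01963, ABCC6P1, ABCC6P2, WAC-AS1 and PSMA3-AS1. TERLR1, described in the table by its place near the telomerase gene TERT, had 3.34, 5.39 and 4.96 FPKM in the controls, 6.13, 6.15 and 7.26 FPKM in shZMAT2-1, and 6.06, 5.36 and 6.12 FPKM in shZMAT2-2. Its log2 fold change in shZMAT2-1 was 0.45 ± 0.19 (SE; limma adjusted p = 0.79), the lowest p of any member in that arm. WAC-AS1, antisense to the adaptor gene WAC, had 6.59, 8.68 and 7.41 FPKM in the controls, 7.59, 8.94 and 6.90 FPKM in shZMAT2-1, and 11.4, 9.44 and 9.65 FPKM in shZMAT2-2. Its log2 fold change in shZMAT2-2 was 0.38 ± 0.18 (limma adjusted p = 0.74), and WAC had 19.2 ± 6.25, 17.2 ± 5.29 and 24.1 ± 4.93 FPKM. Between the arms 5 of 45 members did not overlap (11.1%, beside 14.9%): WAC-AS1, GTF2IP1 and PSMA3-AS1 higher in shZMAT2-2, NEAT1 and TERLR1 lower.

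Several members with large estimates between the arms also varied within a group. BCAN-AS2, antisense to the brain proteoglycan gene BCAN, had 9.06, 26.0 and 8.16 FPKM in the controls, 6.66, 20.6 and 7.17 FPKM in shZMAT2-1, and 31.1, 19.9 and 20.2 FPKM in shZMAT2-2. Within each group the library of highest mitochondrial share was the highest, and BCAN itself averaged 1.17 FPKM. The log2 fold change was 0.84 ± 0.48 (SE) in shZMAT2-2 against control and 1.13 ± 0.48 in shZMAT2-2 against shZMAT2-1 (limma adjusted p = 0.91 and 0.66). UCA1 followed the same order, with 22.9, 62.4 and 23.3 FPKM in the controls, 22.7, 39.2 and 18.8 FPKM in shZMAT2-1, and 49.1, 39.2 and 40.0 FPKM in shZMAT2-2. Its log2 fold change between the arms was 0.71 ± 0.39 (limma adjusted p = 0.66). FAM131B-AS2 ran the other way, with 7.28, 1.49 and 8.10 FPKM in the controls, 10.3, 4.35 and 8.68 FPKM in shZMAT2-1, and 2.42, 4.73 and 5.04 FPKM in shZMAT2-2. The highest-share library was the lowest of each group, and the log2 fold change between the arms was -0.77 ± 0.49 (limma adjusted p = 0.66). Against control FAM131B-AS2 had the highest estimate of all members in shZMAT2-1, 0.55 ± 0.49 (limma adjusted p = 0.81), which without control replicate 2 was -0.05. CHASERR, which lies upstream of CHD2 and is known to restrain it, had 8.15, 2.73 and 8.72 FPKM in the controls, 8.70, 5.17 and 8.32 FPKM in shZMAT2-1, and 3.77, 5.02 and 5.62 FPKM in shZMAT2-2. Its log2 fold change between the arms was -0.52 ± 0.35 (limma adjusted p = 0.66), and CHD2 had 5.41 ± 0.63, 4.39 ± 0.90 and 4.71 ± 0.84 FPKM.

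The order of libraries within a group was shared by many members. The library of highest mitochondrial share was compared with the mean of the other 2 of its group (each value plus 1). In all 3 groups it was higher for 9 of 45 members, beside 9.50% of all tested genes, and lower for 18 of 45, beside 52.8%. Among the 9 were UCA1, BCAN-AS2, SPTBN1-AS2, HAGLR, WAC-AS1, XIST, LINC03046 and PSMA3-AS1. In control replicate 2 the log2 ratio was 1.49 for BCAN-AS2, 1.40 for UCA1 and 1.16 for SPTBN1-AS2. For SPTBN1-AS2 it was 1.42 in the shZMAT2-1 and 0.79 in the shZMAT2-2 library.

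Among the 18 lower members TRIM8-DT had log2 ratios of -1.70, -0.75 and -0.60 in control, shZMAT2-1 and shZMAT2-2, and FAM131B-AS2 -1.81, -0.97 and -0.78. NEAT1 had -1.23, -0.60 and -0.23. Because mitochondrial fragments take up part of the total, the nuclear genes were also rescaled to their own sum. Then 19 members were higher in all 3 groups (42.2%), beside 39.3% of all tested genes, and 8 were lower (17.8%), beside 27.0%. The 8 were FAM131B-AS2, TRIM8-DT, CHASERR, NEAT1, BBOX1-AS1, ARRDC1-AS1, C2orf74-DT and LINC02575, all among the 18. After that rescaling UCA1 had log2 ratios of 2.22, 1.20 and 0.56.

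**Figure D5:**
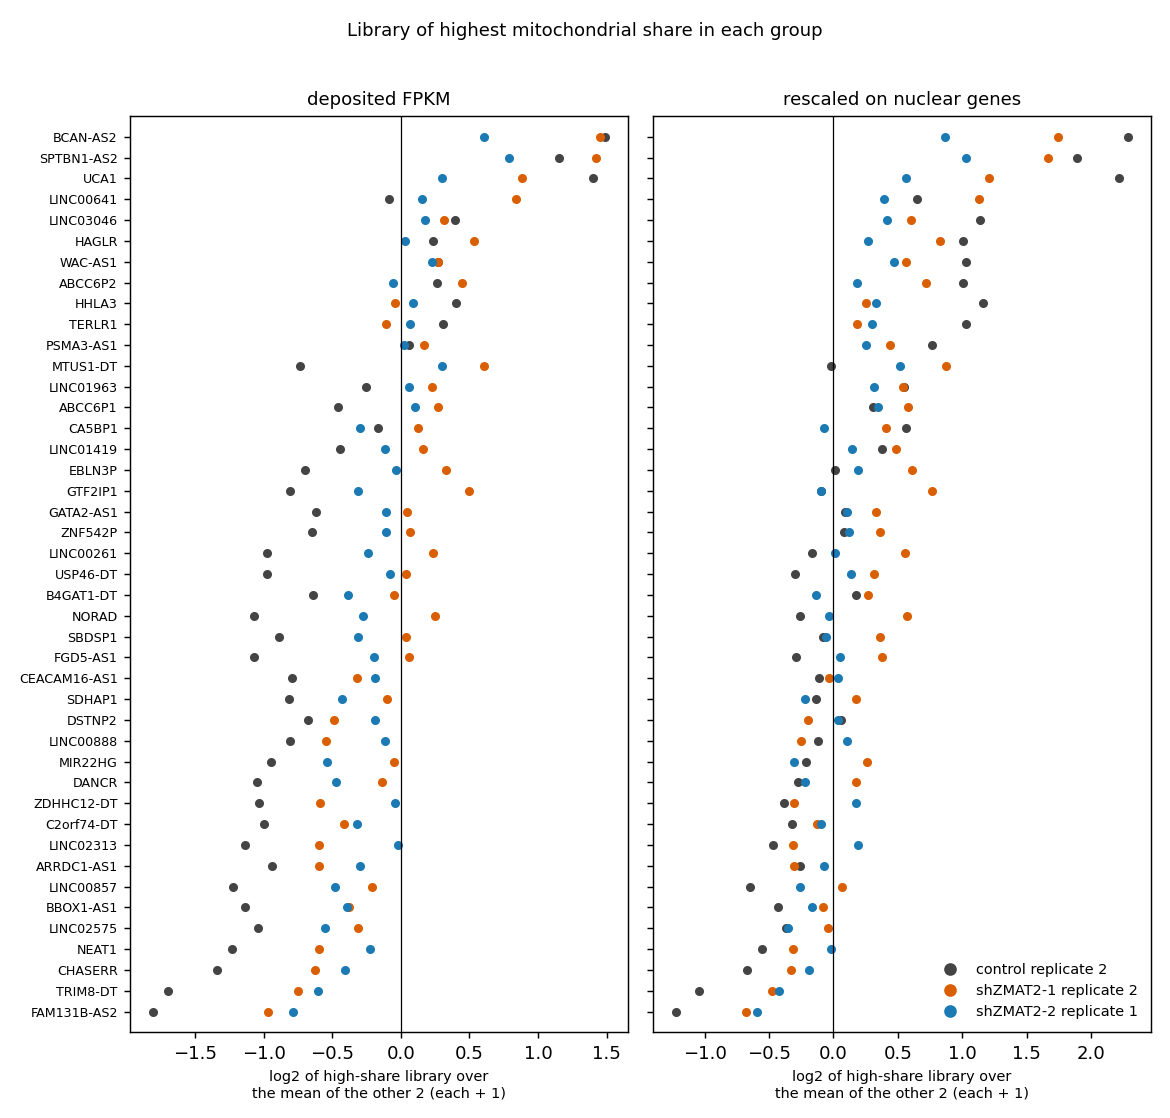
Log2 ratio of the library of highest mitochondrial share to the mean of the other 2 libraries of its group (each plus 1) for 43 of the 45 members, with a point for each group, on the deposited FPKM (left) and after rescaling on nuclear genes (right). BCAN-AS2, SPTBN1-AS2 and UCA1 lie to the right of 0 in all 3 groups on both scales, and FAM131B-AS2, TRIM8-DT, CHASERR and NEAT1 to the left.

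Control replicate 2 was the lowest of all 9 libraries for 26 of the 45 members and the highest for 2, UCA1 among them. Among the 3 controls it was the lowest for 33 members and the highest for 11. The 45 members together made up 0.237% to 0.415% of the summed nuclear FPKM, and the highest share was in control replicate 2. The highest library of a member exceeded its lowest 2.25-fold in the median, from 1.32-fold for CA5BP1 to 6.93-fold for FAM131B-AS2, over the 44 members other than XIST. MIR22HG, the miR-22 host, had 11.4, 5.39 and 11.2 FPKM in the controls, 11.1, 11.7 and 13.0 FPKM in shZMAT2-1, and 7.28, 11.6 and 10.4 FPKM in shZMAT2-2, and its groups overlapped. NORAD had 54.5, 24.0 and 48.5 FPKM in the controls, 36.3, 45.8 and 40.6 FPKM in shZMAT2-1, and 31.6, 47.3 and 29.9 FPKM in shZMAT2-2, from 2963 to 6066 fragments per library. Controls 1 and 3 lay above every knockdown library, and control replicate 2 below every one.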

How the data were processed

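RNA of 9 Huh7 libraries in 3 groups of 3 was measured, and groups were taken from the sample titles. The authors deposited FPKM per gene; per the submitters' processing notes HISAT, featureCounts and DESeq2 were used, without versions. The genome build and whether counting used strand are not given in the sources used here. Gene coordinates are those of the deposited table. The members and gene lists were chosen with earlier results of these data known.

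Log2(FPKM + 1) of genes that reached 1 FPKM in 3 or more libraries was fitted with limma 3.58.1 (R 4.3.3) with a trend, over all 9 libraries and with group as the only term. The fit was also run on simulated data with independent noise per gene and library. Those data held no shift shared by a whole library, so they do not show how the fit handles one. Named are ZMAT2, NEAT1 and MALAT1, the 6 most abundant members, members called with or without control replicate 2 or without overlap, the 3 largest estimates each way per comparison, those at the limit, members of fixed role lists, partner genes, and the 3 paraspeckle and nuclear speckle proteins of lowest adjusted p (the last of each 3 from tied values). WAC-AS1, TERLR1, ABCC6P2, PSMA3-AS1, SPTBN1-AS2, FGD5-AS1, CA5BP1, BBOX1-AS1 and the lncRNAs outside the members were added after their values were seen. The levels of 1 further member are not reported here.

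Depth came from whole-fragment multiples in 1542 single-exon genes (100% of values within 0.1 fragments). Of 45 members 36 matched GENCODE release 29 by identifier and 24 the RefSeq start regions by name. Alternatives were another pseudocount (0.1), other filters, TPM, median-of-ratios and quantile scaling, scaling on nuclear genes, a replicate block, a mitochondrial covariate, only the compared groups, and leaving out libraries.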

Additional observations from a re-analysis of the deposited data

How the results depend on the processing

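Of 37 fold changes of named genes, 36 kept their direction in all 19 or 20 alternatives; FAM131B-AS2 in shZMAT2-1 against control turned from 0.55 to -0.05 without control replicate 2 (-0.053 to 0.88 without 1 library at a time). Leaving out 1 library at a time gave 0 to 3 called members in shZMAT2-2 and 0 to 0 in the other 3 comparisons and in both protein lists. With the mitochondrial covariate 1, 5 and 4 members were called in shZMAT2-1, shZMAT2-2 and the mean of both arms. In that fit 1 of 19 nuclear speckle proteins was called in the mean of both arms, beside 9.75% of all tested genes. With control replicate 2 and shZMAT2-1 replicate 2 left out together 1, 18, 4 and 18 members were called in the 4 comparisons, beside 1.24%, 30.2%, 4.10% and 42.3% of all tested genes; this leaves 2 libraries in each of 2 groups. The replicate block gave 0 called members in all 4 comparisons. The numbers were not used as pairs: of 9 same-numbered pairs 6 had a correlation of deviations over 0.1, from -0.76 to 0.78.

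The mean ZMAT2 level in the knockdown libraries was 47.6% of control with all libraries, 45.1% to 50.2% without 1 library at a time, 47.3% on TPM (exact permutation p = 0.0714) and 47.7% with both libraries left out (exact permutation p = 0.0952); without a control the smallest p the design allows is 0.0714. Members without overlap numbered 0 on TPM, 4 after median-of-ratios scaling, 3 after scaling on nuclear genes, and 1 to 11 without 1 library. For these scalings the share of all tested genes without overlap was not computed. Members higher in all 3 libraries of highest mitochondrial share numbered 3 on TPM, 17 after median-of-ratios scaling, 19 after scaling on nuclear genes and 5 to 10 without 1 library, and those lower numbered 28, 13, 8 and 7 to 21. Limits of 3 and 10 FPKM would give 99 and 13 members. TPM moved the median log2 fold change of all tested genes in shZMAT2-1 by 0.22, median-of-ratios scaling by -0.13, quantile normalization by -0.16 and scaling on nuclear genes by -0.19. For each of these changes the cause was not tested. Most members lie between 5 and 10 FPKM, with 18430000 fragments or more per library, and each group holds 3 libraries.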

Other observations

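Beside the named lncRNAs, 47 lncRNAs known only by an identifier averaged at least 5 FPKM. The highest was ENSG00000290032 on chromosome 6 at 371 FPKM, with 415 ± 70.7 FPKM (SD, n = 3) in control and 354 ± 41.2 in shZMAT2-1. None of the 47 was called by limma in any of the 4 comparisons. At an unadjusted limma p under 0.05 there were 4, 4, 6 and 3 of them, beside 5.76%, 7.00%, 6.93% and 4.14% of all tested genes.

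The 10 small nucleolar RNA hosts left out by the rule had a median log2 fold change of 0.37 in shZMAT2-1 and -0.30 in shZMAT2-2. The 45 members had 0.04 and 0.08, and all tested genes 0.16 and 0.05. In shZMAT2-2 against shZMAT2-1 all 10 estimates were lower, beside 6874 of the 11245 tested genes. The median SD within groups on the log2 scale was 0.65 for the hosts and 0.28 for all tested genes. None of the 10 was called by limma in any of the 4 comparisons. At an unadjusted limma p under 0.05 there were 0, 1, 0 and 1, beside 5.76%, 7.00%, 6.93% and 4.14% of all tested genes.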
